A study of Rattus norvegicus with 16 samples.

Results

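The genes described here are those more abundant in the CA1 subfield of the rat hippocampus than in CA2, CA3 and the dentate gyrus (DG). A gene was taken when its mean over the CA1 libraries was at least 5 CPM (a gene's counts relative to all counts of its library) and at least 2 times its mean in each of CA2, CA3 and DG. Out of 32883 genes counted, 137 met these limits, and 7 of them (Htr5b, Htr1b, Drd5, Galr1, Cdh6, Pex5l and Crabp1) were left out by name, which leaves 130. All 130 were among the 17174 genes with more than 10 counts that were tested. Only 16 of the 130 are paired with a symbol here, and the other 114 are known by their identifier alone. Of the 16, 14 are reported by name. The symbols come from the study's list of subfield marker genes, which was chosen on these same libraries with a large fold change, so the named genes are the strongly enriched ones and not a sample of the 130.

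The libraries came from 4 untreated male Wistar rats aged 3 months. Total RNA of each subfield was given as replicates 1 to 4, or 16 columns of counts, and which rat a replicate number stands for is not stated. The granular layer of DG and the pyramidal layers of the CA subfields were cut from stained frozen sections by laser capture microdissection, in which a laser outlines the tissue to be collected. The tissue was bulk, so fewer cells of a type and less RNA per cell cannot be told apart, and such a layer holds glia, interneurons and vessels besides its principal neurons.

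CA1 is the output stage of the hippocampal circuit. Its pyramidal neurons receive the Schaffer collaterals of CA3 and inputs from the entorhinal cortex, and project to the subiculum, the cortex and other forebrain targets. CA2 lies between CA1 and CA3, and the granule cells of DG excite CA3 through the mossy fibres. Wfs1, which encodes the endoplasmic reticulum membrane protein wolframin, is widely used to mark CA1 pyramidal neurons.

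Library totals ranged from 3216512 to 11933279 counts, so that 3 counts, the limit that a count of 0 allows, were worth between 0.315 and 1.21 CPM. Such limits cover counting error only. The counts of CA2 replicates 2 and 4 were no further apart than sampling noise alone would place them (chi-square per degree of freedom 0.9995), and those of DG replicates 2 and 4 little more so (1.035), against 2.963 to 47.21 in the other 22 pairs within a subfield. In mean ± SD and in the tests each such pair was counted once, which leaves 14 distinct libraries, with n = 4 in CA1 and CA3 and n = 3 elsewhere. The rule, the ratios between subfields and the order of the subfields took all 4 columns, so that both columns of a pair entered them.

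Certain libraries stood apart for the genes described here. CA3 replicate 2 was above the other CA3 libraries in 83 of the 130 genes, or 63.8%, against 25.8% of all genes tested. Its excess over the median of the other CA3 libraries was, in the median gene, 7.75% of the step from that median to the CA1 mean, with quartiles of 2.23% and 12.1%. The CA2 markers Amigo2, Cacng5 and Ccdc3 summed to 25.4 CPM in this library, the lowest of the CA3 libraries, which reached 29.7 CPM. The repeated CA2 pair was above both other CA2 libraries in 91 of the 130 genes, or 70%, against 25.9% of all genes tested, with an excess of 15.3% on the same scale. In this pair the CA2 markers summed to 182 CPM and 180 CPM, below the 260 CPM of CA2 replicate 1 and the 229 CPM of CA2 replicate 3. The part that tissue of CA1 took in these libraries was not tested. Test results of named genes that leaving them out moved across the threshold are given with and without them, as are some other values that moved. Within CA1, replicate 1 was above the mean of the other libraries in 70.8% of the 130 genes, against 47.8% of all genes tested, and was the highest CA1 library in 62 of them. Without it 124 genes met the limits, of which 118 were among the 130.

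Summed over all 130 genes, CA1 held 15558 ± 1070.5 CPM (SD, n = 4), CA2 5215.7 ± 682.4 CPM (SD, n = 3), CA3 4119.6 ± 534.9 CPM (SD, n = 4) and DG 3190.5 ± 67.0 CPM (SD, n = 3). Since the genes were chosen for their CA1 level, these sums describe the set and test nothing. The sums of DG lay within 3133 and 3264 CPM. Those of CA3 ran from 3617 to 4850 CPM, the highest being replicate 2, and those of CA2 from 4642 to 6014 CPM.

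**Figure D1:**
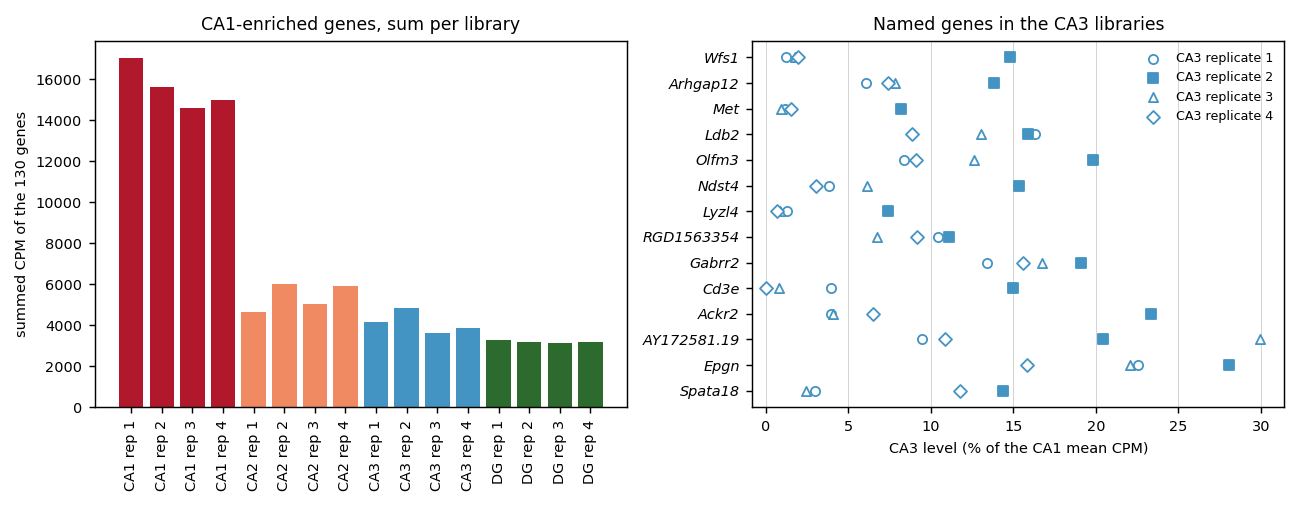
The left panel gives the summed CPM of the 130 CA1-enriched genes in each of the 16 libraries, with bars from 0. The right panel gives the level of each named gene in each CA3 library as a percent of its CA1 mean. CA3 replicate 2 (filled squares) reached 129 CPM of Wfs1, and the other CA3 libraries between 10.6 and 17.0 CPM.

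The sequences before the annotated start are given for Wfs1 and Ndst4, both used to mark the set and both far above the limits of the rule. Each run is the 250 bases before the start in RefSeq's rat assembly GRCr8, on the plus strand (chr14:78034955-78035204 for Wfs1, chr2:216461293-216461542 for Ndst4). The counts were made on another assembly, and these coordinates are not theirs. Capitals mark the letters GGGCGG or its reverse complement CCGCCC, and CANNTG, the core of the E-box.

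Wfs1: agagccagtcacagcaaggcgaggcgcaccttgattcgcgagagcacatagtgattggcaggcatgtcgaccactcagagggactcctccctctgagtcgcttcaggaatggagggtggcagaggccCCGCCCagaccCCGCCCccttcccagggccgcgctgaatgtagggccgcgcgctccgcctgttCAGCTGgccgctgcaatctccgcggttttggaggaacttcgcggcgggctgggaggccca

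Ndst4: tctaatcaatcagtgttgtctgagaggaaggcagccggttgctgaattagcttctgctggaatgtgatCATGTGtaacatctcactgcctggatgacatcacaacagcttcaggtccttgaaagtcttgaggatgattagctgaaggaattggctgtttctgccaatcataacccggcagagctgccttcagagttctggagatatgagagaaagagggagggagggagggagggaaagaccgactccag

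The Wfs1 run was 66% G and C with 20 CG pairs, and that of Ndst4 was 48.8% G and C with 3 CG pairs. Windows of 300 bases, which add 50 bases after the start, were given by RefSeq for 11 of the 14 named genes. Their median G and C content was 51%, against 51.67% over all 33469 windows. On either strand, GGGCGG was found in 3 of the 11 windows (Wfs1, Arhgap12 and Spata18), against 33.1% of all windows, and TATAAA in 1 (Gabrr2), against 14.2%. CANNTG, which reads the same on both strands, was found in 10 of the 11 windows, against 72.1% of all. TGACGTCA and ATGCAAAT were found in 0 of the 11 windows, against 1.83% and 1.78% of all. None of these patterns overlapped another in the runs printed, and a match in letters does not show a site in use.

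The CA1 mean of the 130 genes ran from 5.10 to 2451 CPM, with a median of 49.1 CPM. It was above 100 CPM in 36 genes, between 10 and 100 CPM in 62 and below 10 CPM in 32. The ratio of the CA1 mean to the highest other mean ran from 2.03 to 20.3, with a median of 2.73. In 81 of the genes this ratio was below 3, in 27 it was between 3 and 4, and in 22 it was above 4. In 121 of the 130 genes every CA1 library was above every other library, which held for 3.1% of all genes tested, and the rule itself used this contrast. Among the CA1 libraries the coefficient of variation ran from 1.60% to 155.7%, with a median of 14.5%.

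At the limits of the rule, the 3 genes nearest to a ratio of 2 from above had 2.03, 2.04 and 2.04, and the 3 nearest from below 1.994, 1.992 and 1.987. The 3 genes nearest to 5 CPM from above had 5.10 CPM (Spata18), 5.14 and 5.24 CPM. From below they had 4.89, 4.73 and 4.29 CPM, the last being Cbln1, which encodes the synaptic organizer cerebellin 1. Of the 34 genes that the marker list holds for CA1, 11 fell short of 5 CPM, at 1.16 to 4.29 CPM in CA1. These 11, Cbln1 and Wnt3a (3.34 CPM) among them, met the limit on the ratio, with values of 3.81 to 22.1.

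**Figure D2:**
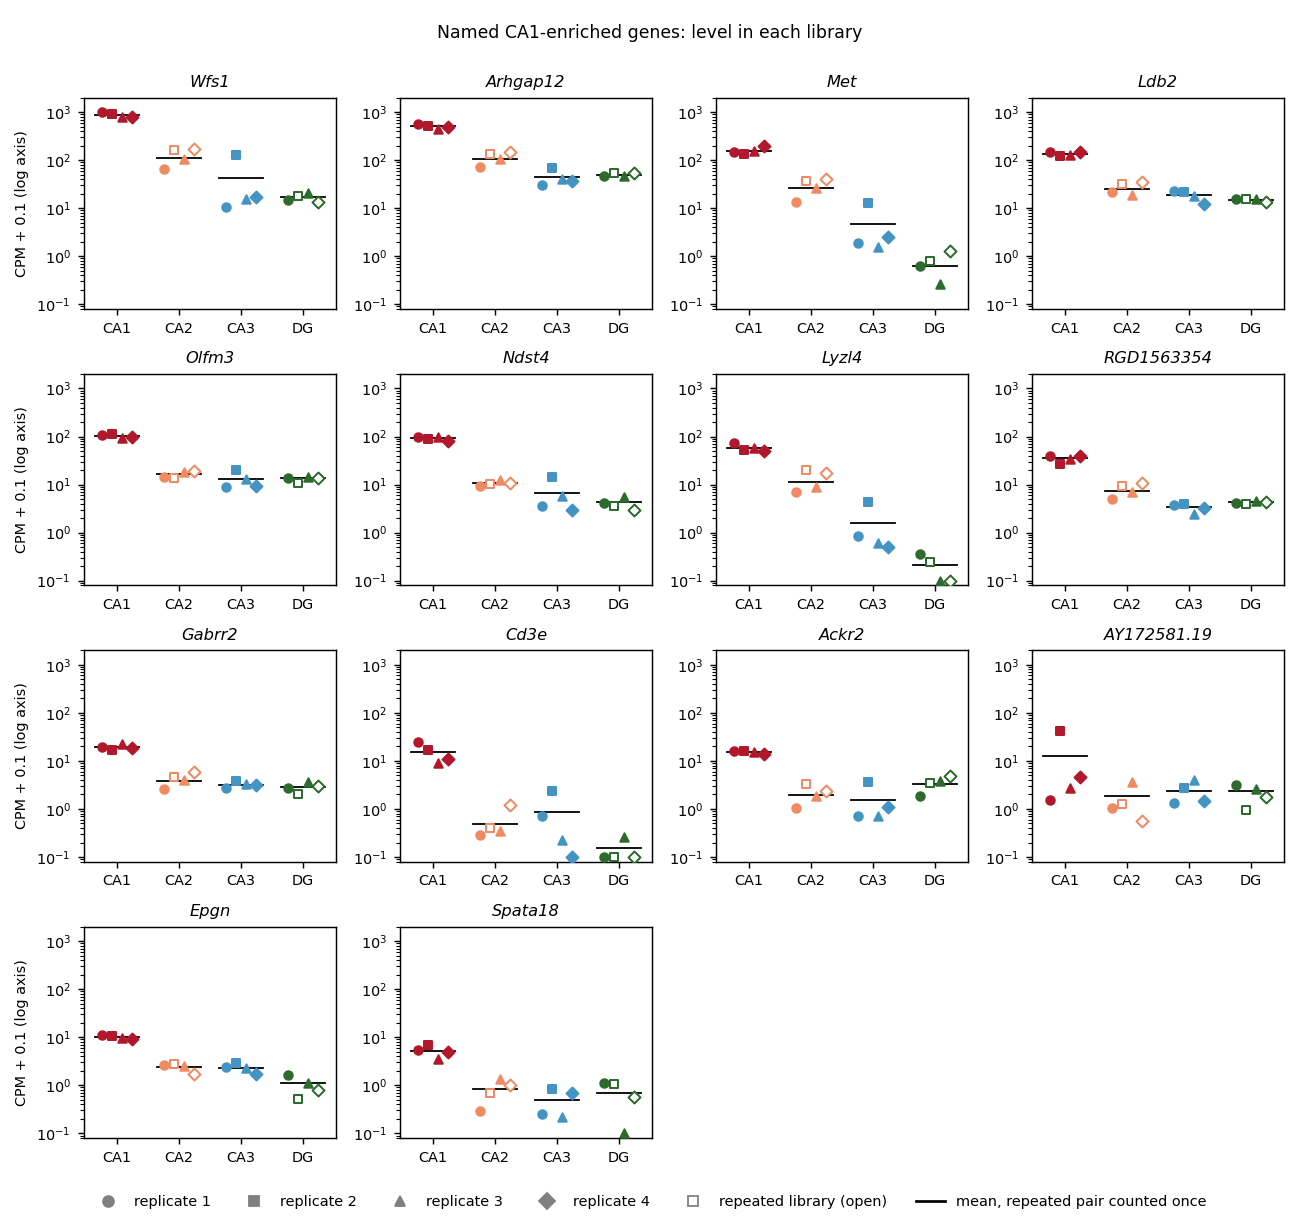
Each panel gives 1 named gene, with the CPM + 0.1 of each library on a log axis by subfield, a symbol per replicate number and open symbols for repeated libraries; the line is the mean with a repeated pair counted once. CA1 lay above all other libraries in 13 of the 14 genes, the exception being AY172581.19. CA3 replicate 2 stood above the other CA3 libraries in many of them, such as Wfs1, Met, Lyzl4, Ackr2, Ndst4, Cd3e, Olfm3 and Arhgap12.

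Among the proteins of the secretory pathway and the cell surface, Wfs1 (ENSRNOG00000005108) was the most abundant named gene by CPM. Its CA1 libraries had 993, 909, 786 and 805 CPM. CA2 had 65.9, 165, 105 and 168 CPM, CA3 had 10.6, 129, 15.7 and 17.0 CPM, and DG had 14.7, 17.5, 20.5 and 13.5 CPM, each in the order of replicates 1 to 4. Every CA1 library was above all others, and CA3 replicate 2 reached the range of CA2. CA1 averaged 873 ± 96.5 CPM (SD, n = 4), CA2 112.5 ± 50.8 CPM (SD, n = 3), CA3 43.2 ± 57.5 CPM (SD, n = 4) and DG 16.9 ± 3.13 CPM (SD, n = 3). Without CA3 replicate 2 the CA3 mean was 14.4 CPM. The ratio of CA1 to CA2, the next subfield, was 6.93 with all 4 columns in each mean, where CA2 averaged 126 CPM.

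Wfs1 was higher in CA2 than in DG, by a log2 fold change of 2.88 (standard error 0.63, edgeR adjusted p = 0.00106). In CA2vsCA3 its log2 fold change of 1.32 (standard error 0.52) did not pass the test (edgeR, adjusted p = 0.154). Without CA3 replicate 2 it was 2.94 (edgeR, adjusted p = 2.091e-07). In CA3vsDG the log2 fold change of 1.56 passed the test (edgeR, adjusted p = 0.0429), but it was -0.060 (edgeR, adjusted p = 0.895) without CA3 replicate 2, and 8 of the 14 libraries left out in turn each ended the call. The other CA3 libraries, at 10.6 to 17.0 CPM, overlapped the range of DG.

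Ndst4 (ENSRNOG00000009577), an N-deacetylase and N-sulfotransferase that modifies heparan sulfate chains in the Golgi, had 99.2, 86.7, 98.1 and 79.6 CPM in CA1. CA2 had 9.41, 10.1, 12.6 and 10.9 CPM, CA3 had 3.49, 14.0, 5.58 and 2.79 CPM, and DG had 4.12, 3.50, 5.28 and 2.85 CPM. CA1 was apart from all other libraries, and CA3 replicate 2 was above every library of CA2 and DG. The ratio of CA1 to CA2 was 8.46. Ndst4 was higher in CA2 than in DG, at a log2 fold change of 1.58 (standard error 0.39, edgeR adjusted p = 0.00319). Its difference in CA2vsCA3, 0.64, did not pass the test (edgeR, adjusted p = 0.331) and was 1.38 (edgeR, adjusted p = 0.00056) without CA3 replicate 2. In CA3vsDG the log2 fold change of 0.95 did not pass (edgeR, adjusted p = 0.0578), and it was 0.198 (edgeR, adjusted p = 0.61) without CA3 replicate 2. It passed without CA3 replicate 1 (1.13, adjusted p = 0.0175) and without CA3 replicate 4 (1.14, adjusted p = 0.0147), which leave replicate 2 in.

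Met (ENSRNOG00000052745), the receptor tyrosine kinase for hepatocyte growth factor, had 149, 136, 156 and 193 CPM in CA1. CA2 had 13.4, 36.4, 26.3 and 40.9 CPM, CA3 had 1.82, 13.0, 1.49 and 2.40 CPM, and DG had 0.52, 0.70, 0.17 and 1.19 CPM. The subfields followed each other without overlap from CA1 through CA2 and CA3 to DG. Met passed the test in all 3 contrasts among the other subfields, with log2 fold changes of 2.35 in CA2vsCA3 (standard error 0.44, edgeR adjusted p = 0.00128), 5.58 in CA2vsDG (standard error 0.71) and 3.23 in CA3vsDG (standard error 0.83, adjusted p = 0.00356). Without CA3 replicate 2 the values were 3.81 in CA2vsCA3 and 1.76 in CA3vsDG, both still past the test. The DG libraries held between 1 and 5 counts of Met, so its level there is known only roughly.

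Olfm3 (ENSRNOG00000017969), a secreted olfactomedin glycoprotein, had 93.6 to 113 CPM in the CA1 libraries. CA2 had 13.9 to 18.9 CPM, CA3 had 8.64 to 20.5 CPM and DG had 10.9 to 14.2 CPM. Beside a ratio of 6.32 between CA1 and CA2, the other subfields overlapped each other, and none of their contrasts passed the test. The log2 fold change of CA2vsDG was 0.49 (edgeR, adjusted p = 0.108), which passed without CA3 replicate 2 (adjusted p = 0.0292). That of CA2vsCA3 was 0.30 (adjusted p = 0.538) and passed without CA3 replicate 2 (0.63, adjusted p = 0.0304). With the CA2 pair left out as well, both missed the threshold (adjusted p = 0.0655 in CA2vsDG and 0.0822 in CA2vsCA3).

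A GABA receptor subunit, Gabrr2 (ENSRNOG00000007490), had 16.5 to 22.7 CPM in CA1, 2.50 to 5.69 CPM in CA2, 2.58 to 3.67 CPM in CA3 and 1.96 to 3.47 CPM in DG. Its pattern was like that of Olfm3, with CA1 apart, a ratio of 4.66 to CA2, and no contrast among the others past the test. The nearest was CA2vsDG at 0.69 (edgeR, adjusted p = 0.0638), which passed without CA2 replicate 1 (0.86, adjusted p = 0.0252) and without DG replicate 3 (0.85, adjusted p = 0.0475). Without the CA2 pair it fell to 0.41 (edgeR, adjusted p = 0.337).

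Ldb2 (ENSRNOG00000003205), a cofactor that binds LIM domain proteins, had 125 to 150 CPM in CA1, 18.7 to 34.8 CPM in CA2, 12.2 to 22.4 CPM in CA3 and 13.5 to 15.2 CPM in DG. CA1 was apart, with a ratio of 5.10 to CA2, and the ranges of CA2 and CA3 overlapped. CA2 exceeded DG by a log2 fold change of 0.90 (standard error 0.21, edgeR adjusted p = 0.00172), which was 0.59 without the CA2 pair (adjusted p = 0.0284). The smaller difference in CA3vsDG, 0.52, passed with all libraries (adjusted p = 0.0411), and not without CA3 replicate 2 (0.43, adjusted p = 0.117). As for Wfs1, the call was lost in 8 of the 14 fits with a library left out.

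Arhgap12 (ENSRNOG00000017791) encodes a GTPase-activating protein that acts on the actin cytoskeleton. It had 556, 515, 447 and 497 CPM in CA1. CA2 had 71.0, 137, 106 and 146 CPM, CA3 had 30.5, 69.7, 39.5 and 37.3 CPM, and DG had 47.7, 54.1, 46.9 and 54.5 CPM. CA1 was apart at 4.37 times the CA2 mean, CA2 was above CA3 and DG in all libraries, and CA3 and DG overlapped. The log2 fold change was 1.23 in CA2vsCA3 (standard error 0.22, edgeR adjusted p = 0.000605) and 1.27 in CA2vsDG (standard error 0.24, adjusted p = 0.000229). In CA3vsDG it was 0.03 (adjusted p = 0.930).

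RGD1563354 (ENSRNOG00000014424), for which no role is given here, had the same order. Its CA1 libraries had 26.9 to 39.4 CPM, against 4.80 to 10.5 CPM in CA2, 2.35 to 3.88 CPM in CA3 and 3.92 to 4.46 CPM in DG. It was higher in CA2 than in CA3 by a log2 fold change of 1.14 (standard error 0.24, edgeR adjusted p = 0.00313) and than in DG by 0.97 (standard error 0.25, adjusted p = 0.00449). Without the CA2 pair these were 0.85 and 0.67, and both missed the threshold (edgeR, adjusted p = 0.0586 and 0.0584). With CA3 replicate 2 left out as well, CA2vsCA3 passed (adjusted p = 0.0498) and CA2vsDG did not (adjusted p = 0.057).

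Epgn (ENSRNOG00000002782), epigen, a ligand of the epidermal growth factor receptor, had 9.30 to 11.1 CPM in CA1. CA2 had 1.59 to 2.67 CPM, CA3 had 1.60 to 2.83 CPM and DG had 0.42 to 1.55 CPM. CA1 was apart at 4.43 times the CA2 mean, and CA2 and CA3 shared 1 range. Both were higher than DG, CA2 by a log2 fold change of 1.53 (standard error 0.37, edgeR adjusted p = 0.00278) and CA3 by 1.55 (standard error 0.35, adjusted p = 0.00132). In the DG libraries 3 counts were worth 0.420 to 0.773 CPM, so the level of Epgn there rests on few counts. The value in CA2vsDG was 1.04 without the DG pair and missed the threshold (adjusted p = 0.0546). That in CA3vsDG was 1.41 without CA3 replicate 2 and passed the test there too.

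Genes best known outside the nervous system were also in the set. Lyzl4 (ENSRNOG00000019350), a lysozyme-like protein of the testis, had 72.1, 52.5, 57.9 and 48.9 CPM in CA1 and 6.91, 20.1, 8.59 and 17.1 CPM in CA2. CA3 had 0.76, 4.30, 0.50 and 0.40 CPM, and DG had 1 count in each of 2 libraries and 0 in the others. The 4 subfields did not overlap. CA3 replicate 4, at 0.40 CPM, lay below the 0.599 CPM that 3 counts were worth there, so its gap to DG is within counting error. The ratio of CA1 to CA2 was 4.39, or 7.47 without the CA2 pair. Lyzl4 was higher in CA2 than in CA3 by a log2 fold change of 2.71 (standard error 0.45, edgeR adjusted p = 0.00035), which was 4.29 without CA3 replicate 2. Both contrasts with DG passed the test (adjusted p = 0.00671 in CA3vsDG), and that of CA3 missed it without CA3 replicate 2 (adjusted p = 0.0778) and passed with the CA2 pair left out as well (adjusted p = 0.0158). It also missed it without the DG pair (adjusted p = 0.0519).

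Cd3e (ENSRNOG00000016069), the epsilon chain of the CD3 complex of T cells, had 24.6, 17.1, 8.96 and 10.9 CPM in CA1 and the largest ratio of the set, 20.3 over CA3. The next subfield was CA2 and the ratio 32.9 without CA3 replicate 2. CA2 had 1 to 5 counts, CA3 had 4, 22, 1 and 0 counts, and DG had 1 count in all. Every CA1 library was above the others, and CA1 replicate 1 had the most. Cd3e was higher in CA3 than in DG (edgeR, adjusted p = 0.0261), but not without CA3 replicate 2 (adjusted p = 0.276), DG replicate 1 (adjusted p = 0.0525) or the DG pair (adjusted p = 0.153). No other gene of the CD3 complex is paired with an identifier here.

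Ackr2 (ENSRNOG00000019472), an atypical receptor that takes up inflammatory chemokines, had 13.7 to 16.2 CPM in CA1. CA2 had 0.96 to 3.26 CPM, CA3 had 0.61, 3.57, 0.62 and 0.998 CPM, and DG had 1.80 to 4.74 CPM. DG was next to CA1, with a ratio of 4.52. Its log2 fold change in CA3vsDG was -0.87 (edgeR, adjusted p = 0.133), and -1.99 without CA3 replicate 2, where DG was higher (adjusted p = 0.000631). In CA2vsDG the value of -0.65 did not pass (edgeR, adjusted p = 0.316), and it was -1.06 (adjusted p = 0.0378) with CA3 replicate 2 and the CA2 pair left out.

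Spata18 (ENSRNOG00000002120), which takes part in the quality control of mitochondria, had 3.43 to 6.70 CPM in CA1 and no more than 1.25 CPM elsewhere. Its ratio was 6.94 over CA2, on few counts, and none of its contrasts among the other subfields passed the test.

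AY172581.19 (ENSRNOG00000032882), for which no role is given here, entered the set through 1 library. CA1 replicate 2 had 42.8 CPM, and the other CA1 libraries had 1.45, 2.69 and 4.45 CPM, within or just above the 0.45 to 3.84 CPM of the other subfields. Without CA1 replicate 2 its CA1 mean was 2.86 CPM and its ratio to the next subfield 1.26, below both limits of the rule. The other 13 named genes kept a ratio of at least 4.34 without that library, with Spata18 at 4.57 CPM in CA1.

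The rule did not use the order of CA2, CA3 and DG among themselves, and the 130 genes were tested for it. CA2 was the highest of the other subfields in 67.7% of them, against 24.8% of all genes tested. Both columns of the repeated CA2 pair entered these means. Without that pair CA2 was the highest of the other subfields in fewer of the 130 genes, and the share over all genes was not computed. The order from CA1 through CA2 and CA3 to DG was found in 63 genes and that from CA1 through CA2 and DG to CA3 in 25. DG came next to CA1 in 22 genes and CA3 in 20. The orders were not counted over all genes tested or without the libraries that stood apart, so these counts describe the set only. The median ratio of the CA1 mean was 2.88 over CA2 and 4.86 over CA3. Without CA3 replicate 2 the latter was 5.34, and without the CA2 pair the former was 3.65.

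**Figure D3:**
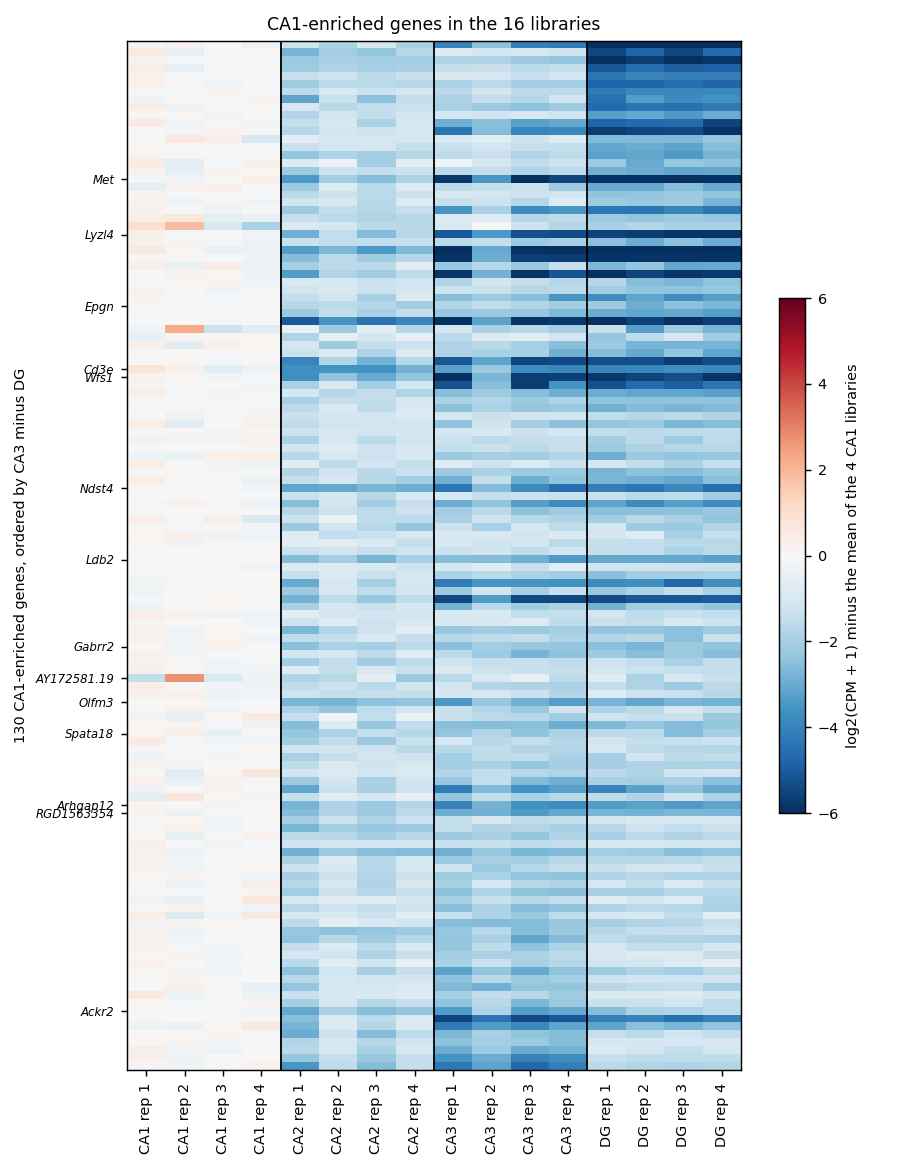
Each row is 1 of the 130 CA1-enriched genes and each column 1 library; the colour is log2(CPM + 1) minus the mean of the CA1 libraries, with rows ordered by the mean of CA3 minus that of DG. Blue marks a level below CA1. The CA3 replicate 2 column is lighter than its neighbours in many rows, as it was above the other CA3 libraries in 83 genes.

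In CA2vsCA3 45 of the 130 genes passed the test, against 7.65% of all genes (edgeR's quasi-likelihood test, adjusted p under 0.05). The 130 genes had at least 5 CPM in CA1, while all genes tested include many of lower counts, in this and the next contrasts. With a stricter filter on low counts 45 of the 130 passed, against 1381 of 13523 genes. Of these 40 were higher in CA2 (background 4.16%) and 5 in CA3 (background 3.48%), and the median log2 fold change was 0.54, against 0.01 over all genes. The named genes among them were Arhgap12, Met, Lyzl4 and RGD1563354, all higher in CA2. The 3 smallest p belonged to genes without a symbol, higher in CA2 by log2 fold changes of 4.06, 2.24 and 1.57. Among those higher in CA3 the 3 smallest p went with values of -1.34, -0.67 and -0.57. Without CA3 replicate 2 the genes that passed were 54, with 52 higher in CA2. Without the CA2 pair they were 30, with 20 higher in CA2, and the median log2 fold change was 0.33. Without both they were 45, with 36 higher in CA2, and the median was 0.54.

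In CA2vsDG 79 genes passed, against 35.4% of all genes, with 76 higher in CA2 (background 18.9%) and 3 in DG (background 16.5%). The median log2 fold change was 1.03, and 0.98 with the 14 genes at or under 3 counts in every library of a subfield set to the bound that 3 counts per library allow. Wfs1, Arhgap12, Met, Ldb2, Ndst4, Lyzl4, RGD1563354 and Epgn were higher in CA2. The 3 smallest p again belonged to genes without a symbol, at 4.48, 2.96 and 2.94, and the 3 genes higher in DG had -0.77, -0.70 and -0.46. Without the CA2 pair 74 passed, 66 of them higher in CA2.

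In CA3vsDG 72 genes passed, against 40.2% of all genes, with 56 higher in CA3 (background 20.6%) and 16 in DG (background 19.7%). The median log2 fold change was 0.57, and 0.52 with 13 genes set to their bound. Wfs1, Met, Ldb2, Lyzl4, Cd3e and Epgn were higher in CA3. The genes with the 3 smallest p, none with a symbol, had 4.59, 3.32 and 3.75. Without CA3 replicate 2 the genes that passed were 63, with 43 higher in CA3 and 20 in DG, and of the named genes above only Met and Epgn still passed, with Ackr2 then higher in DG. The 16 genes higher in DG than in CA3 were all without a symbol, with fitted values from -2.13 to -0.54.

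These contrasts share libraries, since each subfield enters a pair of them. The patterns below were not counted over all genes tested, so their counts describe the set only. Read together, 19 genes fell in order from CA2 through CA3 to DG with every step past the test, among them Met and Lyzl4. In 29 genes CA2 and CA3 were each higher than DG, and their own difference did not pass. Wfs1, Ldb2 and Epgn were of this kind. Without CA3 replicate 2 the CA3vsDG calls of Wfs1, Ldb2 and Lyzl4 were lost (edgeR, adjusted p = 0.895, 0.117 and 0.0778). Wfs1 then passed in CA2vsCA3, at a log2 fold change of 2.94 (edgeR, adjusted p = 2.091e-07), and was no longer of this kind. In 12 genes, Arhgap12 and RGD1563354 among them, CA2 was higher than both CA3 and DG, with no call between these. In 32 genes no contrast passed, and Olfm3, Gabrr2, Ackr2, AY172581.19 and Spata18 were among them.

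**Figure D4:**
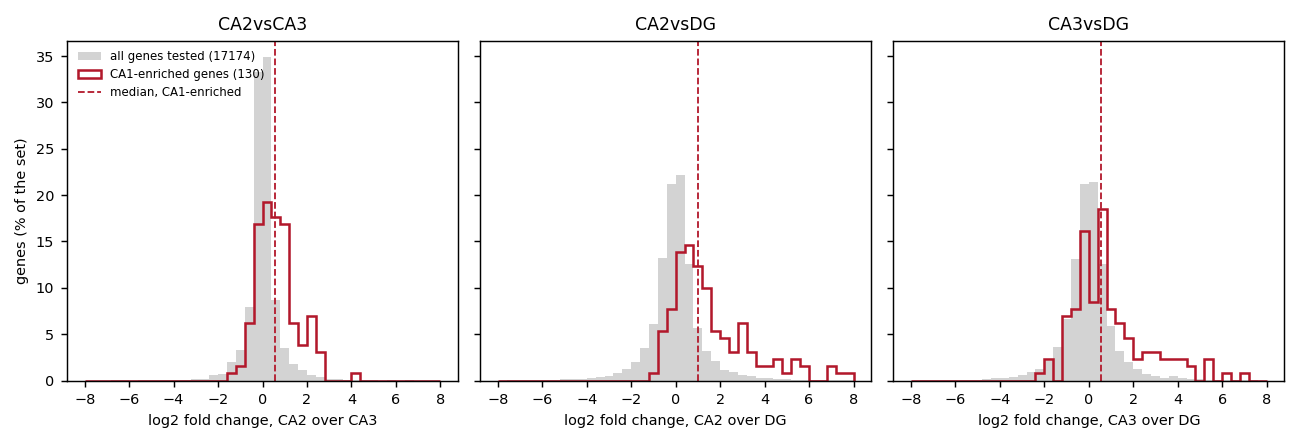
The panels give the log2 fold change of CA2 over CA3, CA2 over DG and CA3 over DG, as the percent of genes in each bin, for the 130 CA1-enriched genes (red line) and all 17174 genes tested (grey). The dashed lines are the medians of the CA1-enriched genes, at 0.54, 1.03 and 0.57. Fitted values over DG above about 4 include genes with 3 counts or fewer in every DG library.

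The 116 genes not reported by name had ratios of 2.03 to 19.0 over the next subfield, with a median of 2.68, and 8 of them were above 4. The most abundant gene of the set by CPM was ENSRNOG00000004026. It had 2607, 2629, 2212 and 2356 CPM in CA1, 1018 to 1242 CPM in CA2, 1008 to 1276 CPM in CA3 and 832 to 893 CPM in DG. Its CA1 libraries were apart from all others by a ratio of only 2.11. It was higher in CA2 than in DG by a log2 fold change of 0.55 (standard error 0.10, edgeR adjusted p = 0.000278) and in CA3 than in DG by 0.62 (standard error 0.10).

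ENSRNOG00000032660 came next to Cd3e in ratio, at 19.0 over CA2, and rested on far more counts. Without the CA2 pair its ratio was 29.1, over CA3. Its CA1 libraries had 189, 188, 195 and 181 CPM, a coefficient of variation of 3.09%. CA2 had 4.80, 15.4, 7.85 and 11.6 CPM, CA3 had 2.12, 19.1, 2.23 and 2.40 CPM, and DG had 1.03 to 3.08 CPM. The lowest CA1 library was 9.46 times the highest other one, which was CA3 replicate 2. It was higher in CA2 than in DG by a log2 fold change of 2.17 (standard error 0.68, edgeR adjusted p = 0.0158).

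In DG 13 of the 130 genes had no more than 3 counts in any library, in CA2 this held for 1 gene, and in CA3 for 0. Without CA3 replicate 2 it held for 7 genes in CA3.

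The rule was also applied to some of the replicate numbers and the genes then read in the others, which it had not used. The same shares were not computed over all genes, so these values describe the chosen genes only. The genes chosen without replicate 1 were 116, of which 114 were highest in CA1 in replicate 1. There 109, or 94.0%, were at least 2 times the next subfield. The median ratio was 3.26, against 2.61 in the replicates that chose them. The 132 genes chosen without replicate 3 gave 129 and 106, or 80.3%, with a median ratio of 2.76, against 2.73 in the choosing replicates. Replicates 2 and 4 share the repeated libraries and were held out together, so they were not read separately. Of the 161 genes chosen in replicates 1 and 3, 158 were highest in CA1 in the mean of replicates 2 and 4, but only 94, or 58.4%, reached a ratio of 2. Their median ratio was 2.11 there, against 2.81 in the replicates that chose them. Replicates 2 and 4 hold CA3 replicate 2 and the repeated CA2 pair, and the part of these libraries in the smaller ratio was not tested.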

How the data were processed

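Total RNA of CA1, CA2, CA3 and DG from 4 rats was measured by sequencing of stranded libraries. Alignment by the authors was with STAR on Rnor6, and the deposited values are raw counts per Ensembl gene. The deposited tables of each comparison hold the authors' own fold changes and p-values and were not used. Groups and replicate numbers came from the sample titles.

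CPM were computed here from the counts, with 2 mitochondrial ribosomal RNA identifiers left out of the column sums (they held 16.1% to 31.1% of the counts), and are not scaled by gene length. Means per subfield took all 4 columns in the rule and counted a repeated pair as 1 replicate in mean ± SD. Contrasts were tested with edgeR 4.0.16 (limma 3.58.1, R 4.3.3), with TMM normalization, 1 coefficient per subfield, repeated pairs summed (14 libraries), quasi-likelihood F-tests and Benjamini-Hochberg adjustment over 17174 genes with more than 10 counts, called under 0.05. The CA1 contrasts were used by the rule and are given without a test. The scripts were tested on simulated data.

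The genes, lists and tests were chosen with earlier results of these data known. Named genes are those with a symbol, of which 2 are not reported here, the nearest to each limit and 2 identifiers. Lists of related genes (unfolded protein response, MET signalling, heparan sulfate synthesis, LIM domain regulators, cerebellins and olfactomedins) and of interneuron, glial and vascular markers had 0 genes paired with an identifier and were not analysed here. The CA2, CA3 and DG markers had 3, 3 and 5 paired genes, chosen by the study on these samples.

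Alternatives were DESeq2 1.42.0, other scalings and filters, the replicate number as a block, and each library left out.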

Additional observations from a re-analysis of the deposited data

Results flagged for a closer look

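In groups of 4 libraries, a library was singled out when its gap to the nearest other, as a share of the group's range, was above Dixon's critical value. Of 28 such groups among the 14 named genes 5 were singled out, and 4 of them were CA3 replicate 2. Chance gives about 1 in 20 for a single group. The genes share the same libraries, so the groups are not independent and their number tests nothing. That library had 129.3 CPM of Wfs1, against 10.6 to 17.0 CPM in the other CA3 libraries, and 13.0 CPM of Met, against 1.49 to 2.40 CPM. It had 4.30 CPM of Lyzl4, against 0.40 to 0.76 CPM, and 3.57 CPM of Ackr2, against 0.61 to 0.998 CPM. These levels were 8.95 times the mean of the other CA3 libraries for Wfs1, 6.85 for Met, 7.81 for Lyzl4 and 4.81 for Ackr2. The sum of the CA3 markers Fermt1, Vgll3 and Gjd2 was 47.0 CPM in this library, within the 45.4 to 59.7 CPM of the others. The cause was not tested.

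The fifth was AY172581.19 in CA1 replicate 2, at 42.8 CPM, against 1.45 to 4.45 CPM in the other CA1 libraries. CA1 replicate 2 also had the highest sum of CA2 markers in CA1, at 38.2 CPM. The sum was 30.0 CPM in CA1 replicate 3, 14.6 CPM in replicate 4 and 10.4 CPM in replicate 1. In CA2 itself AY172581.19 averaged 1.55 CPM. The cause of the high value was not tested.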

How the results depend on the processing

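None of the 98 alternative values of the 4 counts moved by more than 1.5 times. When single libraries were left out, the genes that passed were 30 to 54 in CA2vsCA3, 70 to 80 in CA2vsDG and 52 to 75 in CA3vsDG, and the genes that met the rule 124 to 138. Without 1 replicate number the rule gave 116 to 139 genes. With TMM-scaled CPM it gave 114, of which 112 were among the 130, and with CA3 replicate 2 and the CA2 pair left out, an alternative chosen after seeing the data like the held-out replicates, 155, of which 127 were. The log2 fold change of Wfs1 in CA3vsDG turned from 1.56 to -0.060 without CA3 replicate 2, the lowest value with a library left out (the highest was 1.85), and to -0.067 with the CA2 pair left out as well. Of the 18 calls of named genes, 11 held in all alternatives and 7 were lost in at least 1, and 8 others were gained in at least 1.

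The libraries of a replicate number were not treated as paired. The sample descriptions carry a running number that the subfields share, but neither they nor the methods state that it stands for a rat. Each repeated pair carries 2 numbers. Deviations from the subfield means correlated at -0.132 to 0.68 between libraries of the same number (median 0.26, 24 pairs), against a median of -0.10 in 72 pairs of different numbers. The libraries of replicate 1 correlated with each other at 0.613 to 0.68. Within each of the other numbers the values lay between -0.132 and 0.45. Not every library correlated best with its own number, CA3 replicate 2 being closest to DG replicate 3 (0.463). With the number as a replicate block over 16 columns, where each repeated library counts as 2 replicates, 66 genes passed in CA2vsCA3, 92 in CA2vsDG and 88 in CA3vsDG. With repeated pairs given by their replicate 2 column alone these were 59, 84 and 82, and by their replicate 4 column 62, 86 and 77. Of the named genes, Wfs1 in CA2vsCA3 passed in all 3 block fits. Olfm3 and Gabrr2 in CA2vsDG passed over 16 columns only. In CA3vsDG, Ndst4 and Ackr2 each passed over 16 columns and in 1 of the fits that count a pair once. Ndst4 in CA2vsCA3 passed, and Wfs1 in CA3vsDG did not, with the replicate 4 columns. The lists of related genes could not be run under any alternative. Depth limits genes near 3 counts per library, in DG above all.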
